A study of Mus musculus with 48 samples.

Results

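Kidneys of Hyp mice fed a low phosphorus diet were compared with kidneys of normal mice fed a control diet, so the difference carries the mutation and the diet together. The samples were all pools of those groups, 6 and 6, with the male and the female difference given equal weight, out of 24 pools in the whole study. Each pool held RNA from whole kidneys of 3 mice and was hybridised to the Affymetrix 430A and 430B chips. The Hyp pools came from hemizygous Hyp/Y males (3 pools) and heterozygous Hyp/+ females (3 pools), and the normal pools came from their littermates, 3 of each sex. The control or low phosphorus Teklad diet was given for 3 days to mice 10 weeks old. The strain C57BL/6J is named in 1 of the labels. The other 12 pools, Hyp on the control diet and normal on the low phosphorus diet, split the combined difference into its parts. No label states that the pools within a group came from separate litters or days, so p-values measure the spread between these pools, each of which already averages 3 mice.

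Hyp is a mutation of Phex, an X-linked gene of bone cells whose loss raises the phosphate hormone FGF23. FGF23 acts on the kidney through FGF receptors and Klotho, lowers phosphate reabsorption in the proximal tubule and holds down the making of active vitamin D. A low phosphorus diet alone does the opposite in a normal kidney: phosphate is retained and Cyp27b1, which makes active vitamin D, is induced. Mutation and diet thus both mean low blood phosphate, and the question here is where their effects on kidney RNA add and where they cancel.

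The combined difference equals the genotype main effect (Hyp minus normal over both diets) plus the diet main effect (low minus control over both genotypes). Effects of like sign add in it and effects of unlike sign cancel. A feature below is a gene, represented by 1 probe set, or an unnamed probe set; all log2 values are differences of log2 signal with their standard error after ±, and a feature is called where limma's adjusted p was under 0.05. Levels are the scaled signal of the array, in arbitrary units, and are compared only within a gene.

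S100g and Cyp27b1, the genes with the clearest departure from a sum of both effects, are shown with the 250 bases before their RefSeq start (GRCm38.p6, 5′ to 3′ on each gene's own strand). Capitals mark the half-sites AGGTCA and GGTTCA, the letters of vitamin D receptor and related nuclear receptor elements, on either strand.
S100g, chrX:162964600-162964849, minus strand: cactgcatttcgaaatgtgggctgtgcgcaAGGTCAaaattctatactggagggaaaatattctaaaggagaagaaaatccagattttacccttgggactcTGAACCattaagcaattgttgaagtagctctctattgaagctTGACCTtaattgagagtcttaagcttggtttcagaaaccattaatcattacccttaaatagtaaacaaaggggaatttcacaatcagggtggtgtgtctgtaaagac
Cyp27b1, chr10:127047996-127048245, plus strand: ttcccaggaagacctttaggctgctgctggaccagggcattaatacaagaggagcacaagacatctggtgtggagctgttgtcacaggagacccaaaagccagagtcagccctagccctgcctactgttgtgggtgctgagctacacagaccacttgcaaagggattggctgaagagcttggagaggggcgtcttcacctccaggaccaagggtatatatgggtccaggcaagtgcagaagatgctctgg
The S100g window held 3 half-sites: AGGTCA 220 bases before the start on the gene's strand, GGTTCA from 149 on the opposite strand and AGGTCA from 107 on the opposite strand. Over 32851 windows of this length, 14.0% held AGGTCA, 8.85% held GGTTCA, 21.5% held either and 0.371% held 3 or more. The cut of 3 equals the count in S100g, a gene shown for its signals, so that share is a description and no test. The Cyp27b1 window held neither set of letters. Matches of letters are descriptions of the sequence. The promoter sequences at hand had no entry for Cyp24a1, Calb1 or Mdk.

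Against normal kidneys on the control diet, Hyp kidneys on low phosphorus had 91 features higher and 66 lower of 18646 tested, 157 in all. The background of called features was therefore 0.488% higher and 0.354% lower. The changes reached 4.62-fold upwards, in a feature without a name, and 7.58-fold downwards, in Cyp27b1. An unadjusted p under 0.05 was reached by 1579 features where chance would give 932. A change of over 1 on the log2 scale was seen for 29 of the called features. The 6 pools of each group did not overlap for 54 of the 157, with 0.579% of all features not overlapping. Within each sex, 124 of them were apart in both sexes in the same direction (1.94% of all features). The sign was the same in males and females for 153 of the 157.

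For comparison, the genotype main effect called 363 features (1.95%) and the diet main effect 144 (0.772%), both with 12 pools against 12 and so with smaller standard errors. Of the 157 features of the combined difference, 88 were also called for genotype but not diet, 27 for diet but not genotype, 14 for both in the same direction and 5 for both in opposite directions. These 3 comparisons share pools, so the split describes the sum and does not test it. Of the 88, the diet estimate had the sign of the genotype effect in 57 and the opposite sign in 31. The remaining 23 were called for neither main effect. In each of them both estimates had the same sign and passed only when summed, as the arithmetic of the sum requires.

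**Figure D1:**
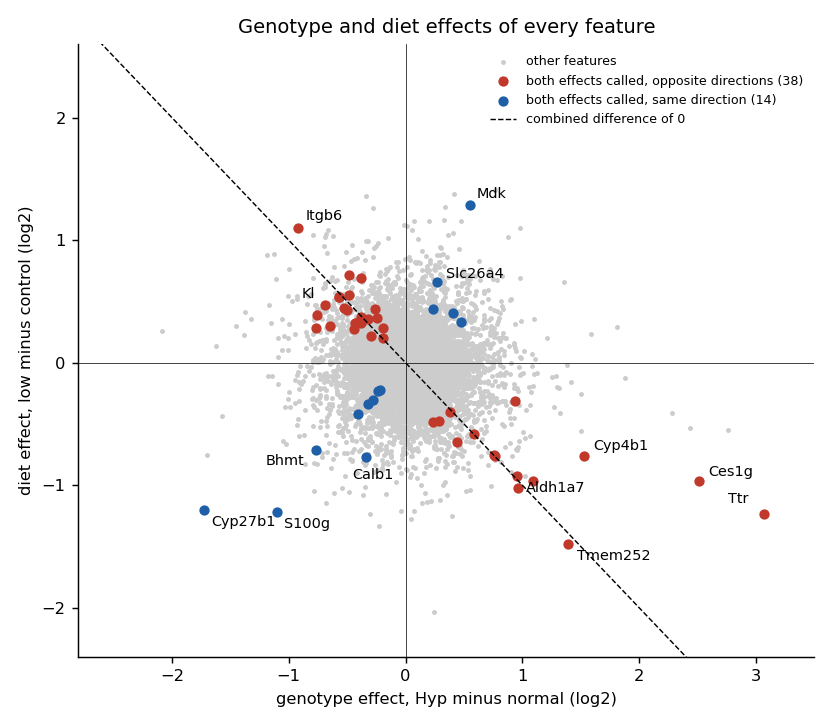
Each point is 1 of 18646 features, with the genotype effect (Hyp minus normal, log2) on the x axis and the diet effect (low minus control, log2) on the y axis. Blue points are the 14 features called for both effects in the same direction, red points the 38 called in opposite directions, and the dashed line marks a combined difference of 0, along which most red points lie.

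Both effects were called for 52 features, and cancelling was the commoner pattern: 38 had unlike signs and 14 had like signs. The 14 with like signs had median sizes of 0.37 for genotype and 0.43 for diet and a median combined size of 0.82. In the 38 with unlike signs the median sizes were 0.51 and 0.47, and the combined size was 0.10, beside 0.13 over all features. All 14 of the first kind and 5 of the second were called for the combined difference. The 14 became 8 without the filter, and 9 with common-median scaling or without the third male Hyp pool on control. Of the 33 others, 28 had a 95% interval of the combined difference that lay within 0.5 of 0 on the log2 scale. For the other 5 the interval reached past 0.5 on at least 1 side. The bound of 0.5 is close to the median sizes of 0.51 and 0.47, and some effects were smaller. The count of 28 therefore does not show cancelling gene by gene.

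Adding upwards were 5 named genes: Mdk, Slc26a4, Apoe, Apom and Dpp7. Mdk, which encodes the heparin-binding growth factor midkine, was the steepest. Its signal in normal pools on control was 302 at the lowest, 343 at the median and 555 at the highest. In Hyp pools on low phosphorus it was 1176, 1288 and 1551, so the groups lay far apart. Mdk was 3.58-fold higher (log2 1.84 ± 0.10, adjusted p = 6.97e-10), made up of 0.55 ± 0.07 from genotype and 1.29 ± 0.07 from diet. Hyp pools on the control diet had 454 to 828 (median 647) and normal pools on low phosphorus had 918 to 1268 (median 1065), so the medians with 1 factor lay between the other medians while single pools overlapped them. Its interaction, the departure from a plain sum, was -0.47 and was not called.

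Slc26a4, the chloride-bicarbonate exchanger pendrin of type B intercalated cells, added almost exactly. Its signal went from 715 to 1219 (median 940.1) in normal pools on control to 1683 to 1908 (median 1819) in Hyp pools on low phosphorus, with no overlap. The rise of 0.93 ± 0.08 (1.90-fold, adjusted p = 5.09e-07) held 0.27 from genotype and 0.66 from diet, with an interaction of -0.02. The 9 measured intercalated cell genes had a median of 0.39 beside 0.00 over all features. Of them 4 rose and none fell, where 0.488% of all features were called higher and 0.354% lower. The others were Slc4a9, a basolateral bicarbonate transporter (0.77 ± 0.11), the proton pump subunit gene Atp6v0d2 (0.52 ± 0.12) and the ammonia channel gene Rhcg (0.39 ± 0.08). Foxi1, the transcription factor of these cells, gave 0.48 ± 0.13 and did not pass (adjusted p = 0.105). In whole kidney, more cells of a type and more RNA per cell cannot be told apart, here or in any gene below.

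The lipid carrier genes Apoe and Apom each added in similar parts. Apom, whose protein rides on plasma lipoproteins and is bound by megalin in the proximal tubule, had 1347 to 2096 (median 1817) in normal pools on control. Hyp pools on low phosphorus had 2437 to 3727 (median 2999.9) and did not overlap them. It was 1.74-fold higher (0.80 ± 0.09, adjusted p = 2.88e-05), from 0.47 by genotype and 0.33 by diet. In Hyp males the mean Apom signal was 2493 on control and 3596 on low phosphorus. In Hyp females these means were 2637 and 2573, so a diet step within Hyp pools was seen in males only. Apoe differed between the sexes at the start, with 1209 ± 245 (SD, n = 3) in normal control males and 3471 ± 249 in females. In Hyp pools on low phosphorus it was 2234 ± 399 in males and 5766 ± 502 in females, apart within each sex, and 1.75-fold higher overall (0.81 ± 0.11, adjusted p = 2.48e-04). Dpp7, a lysosomal dipeptidase gene, rose by 0.67 ± 0.08. Its genotype part of 0.23 lost its call without any 1 of 3 pools (adjusted p up to 0.0537).

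**Figure D2:**
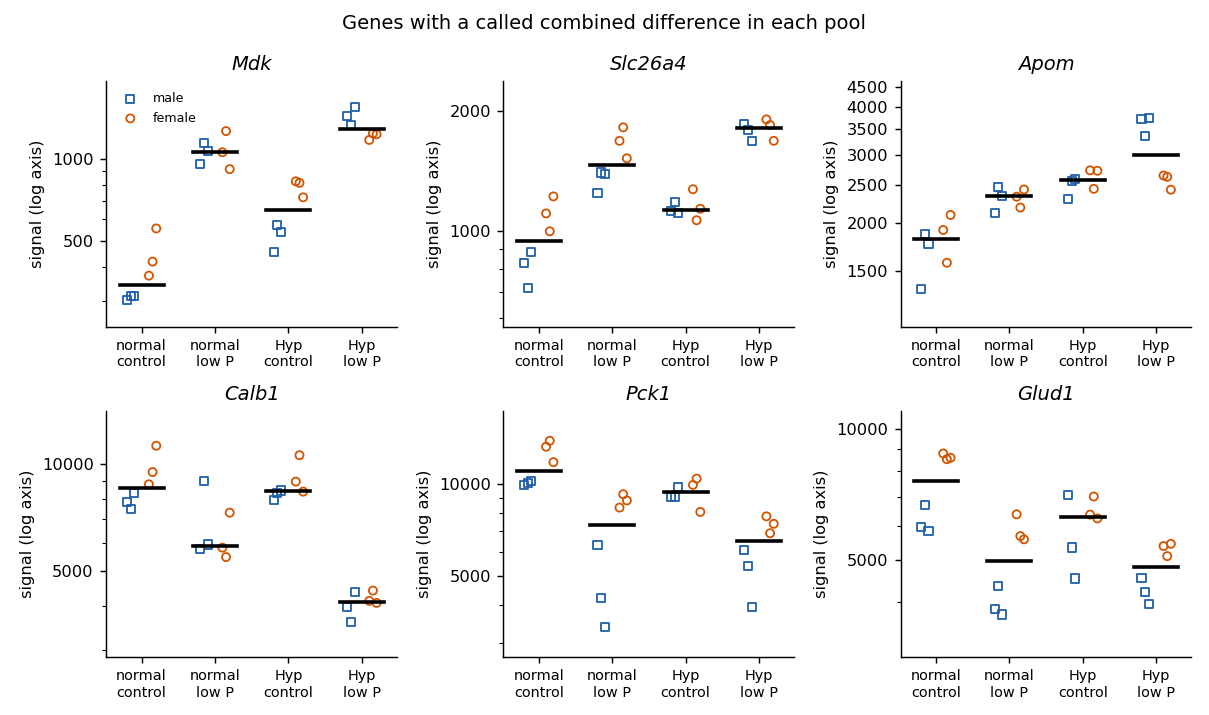
Signal of 6 genes in each of the 24 pools (log axis, squares male, circles female, bar the median of 6 pools) by genotype and diet. Mdk, Slc26a4 and Apom climb from normal on control to Hyp on low phosphorus without overlap of those 2 groups, Calb1 falls, and Pck1 and Glud1 fall with the diet in both genotypes.

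Adding downwards were 9 features, 8 of them named: Cyp27b1, S100g, Bhmt, Calb1, Ugt2b38, Slc16a4, Slc22a6 and Fmo1. Bhmt, which remethylates homocysteine from betaine, fell 2.79-fold (-1.48 ± 0.21, adjusted p = 5.46e-04), with -0.76 from genotype and -0.72 from diet. Its levels were 143 ± 60.0 in normal control males and 722 ± 67.8 in females (SD, n = 3). They were 69.7 ± 34.7 and 196 ± 34.5 in Hyp pools on low phosphorus, apart in females and overlapping in males. The glucuronosyltransferase gene Ugt2b38 (-0.66 ± 0.09), the monocarboxylate transporter family gene Slc16a4 (-0.58 ± 0.07), the basolateral organic anion transporter gene Slc22a6 (-0.46 ± 0.07) and the flavin monooxygenase gene Fmo1 (-0.44 ± 0.07) also fell. Median signals of Fmo1 were 8235 in normal pools on control, 6074 in normal pools on low phosphorus and 5925 in Hyp pools on control. With both factors the Fmo1 median was 5703, little below that with either factor alone, and its interaction was not called. A second probe set of Slc16a4 and of Slc22a6 did not pass. With each probe set tested on its own, the median over them did not count as called for either gene (-0.26 for Slc16a4). No fit was made to such a median, here or below. Without any 1 of 12 pools the diet part of Slc22a6 was not called (adjusted p up to 0.0619), and without any 1 of 18 pools that of Fmo1 was not (up to 0.0756).

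Like signs of the 2 main effects hide an interaction in Cyp27b1 and S100g. The genotype by diet interaction was called for 3 features (0.0161%), Cyp27b1, S100g and Ttr, while 1004 had an unadjusted p under 0.05. S100g encodes calbindin-D9k, the calcium-binding protein of the distal nephron whose gene responds to vitamin D, and its promoter is printed above. Its signal was 6313 to 11934 (median 10089.7) in normal pools on control, 7689 to 12884 in normal pools on low phosphorus and 7695 to 15128 in Hyp pools on control. These 3 conditions overlapped throughout. Only Hyp pools on low phosphorus were low, at 1374 to 2593 (median 1860.2), under every other pool of the study. Genotype on the control diet gave 0.20 ± 0.13 (adjusted p = 0.763) and diet in normal mice 0.08 ± 0.13 (adjusted p = 0.911), whereas the combined difference was -2.32 ± 0.13, a 4.98-fold fall (adjusted p = 1.20e-09). The interaction was -2.60 (adjusted p = 1.74e-07).

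Cyp27b1, the 25-hydroxyvitamin D 1α-hydroxylase, had higher signals with either factor alone and the lowest with both. In normal pools on control its signal was 42.4 to 108 (median 74.1). Normal pools on low phosphorus had 161 to 435 (median 361) and Hyp pools on control had 134 to 637 (median 199). Hyp pools on low phosphorus had 4.40 to 21.3 (median 9.35), below all others. Diet raised it by 2.11 ± 0.37 in normal mice (adjusted p = 0.00824) and gave -4.51 in Hyp mice (adjusted p = 8.53e-07), while genotype on the control diet gave 1.59 ± 0.37 (adjusted p = 0.0542). The combined difference was -2.92 ± 0.37 (7.58-fold, adjusted p = 1.75e-04) and the interaction -6.62 (adjusted p = 5.59e-07). Both groups compared lay under the median of their arrays (165 to 211 on the 430A chip), so the size is uncertain. With 50 added to each signal the combined difference was -1.03 and still called, and the diet main effect was -0.30 and not called. That diet effect also lost its call without any 1 of 10 pools (adjusted p up to 0.0716).

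Calb1, calbindin-D28k of the distal convoluted and connecting tubule, fell from 7474 to 11274 (median 8550.0) to 3597 to 4416 (median 4104) without overlap, 2.15-fold (-1.10 ± 0.11, adjusted p = 5.62e-06). Hyp pools on the control diet were at 7940.3 to 10602, so genotype without the diet gave -0.01 ± 0.11 (adjusted p = 0.994), and diet in Hyp mice gave -1.10 ± 0.11. The interaction of -0.65 was not called. Cyp24a1, which breaks active vitamin D down, was 3.36-fold higher (1.75 ± 0.19, adjusted p = 2.88e-05), at 2135 to 3663 (median 2659.6) against 615 to 1385 (median 719). The genotype effect was 1.88 ± 0.14, and the diet main effect was -0.13 ± 0.14 (adjusted p = 0.855). That diet value averages estimates of opposite sign, -0.79 ± 0.19 in normal and 0.53 ± 0.19 in Hyp mice, neither called. The interaction of Cyp24a1 was not called. Vdr, the vitamin D receptor gene, gave 0.35 ± 0.09 (adjusted p = 0.116). Of 14 measured distal calcium and magnesium genes, S100g and Calb1 fell, beside 0.354% of all features called lower. None rose and the list's median was 0.01. Trpv6, Trpm6, Casr and Pvalb were among those that did not pass.

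**Figure D3:**
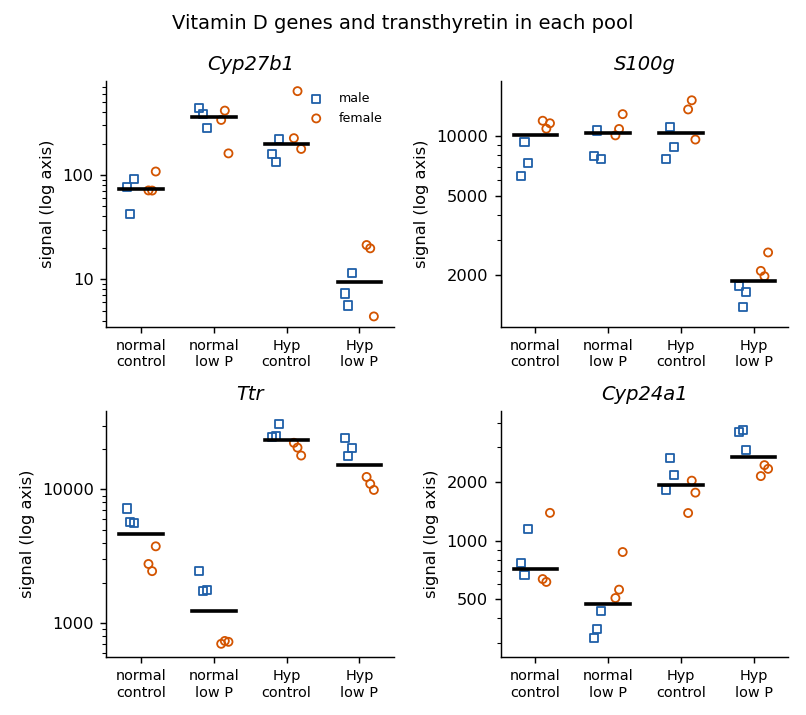
Signal of Cyp27b1, S100g, Ttr and Cyp24a1 in each of 24 pools (log axis, squares male, circles female, bar the median of 6 pools). S100g is low only in Hyp pools on low phosphorus (1374 to 2593), Cyp27b1 is highest with 1 factor and lowest with both, and Ttr stays above normal on control in both Hyp groups.

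In Ttr, which encodes transthyretin, a carrier of thyroxine and of retinol-binding protein, diet took back part of a large genotype effect. Its signal was 2446 to 7208 (median 4674) in normal pools on control and 9924 to 24390.1 (median 15127) in Hyp pools on low phosphorus, with no overlap. The combined rise was 3.57-fold (1.84 ± 0.12, adjusted p = 1.12e-08): 3.07 ± 0.09 from genotype less 1.23 from diet. Diet lowered Ttr by 1.84 in normal mice and by 0.62 in Hyp mice on the log2 scale, and the interaction of 1.22 was called (adjusted p = 0.00392). The 3 other Ttr probe sets gave the same direction and were called as well. The Ttr probe set of the 430B chip had mean signals of 3368 ± 1475 and 13251 ± 4139 (SD, n = 6).

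Differences of between -0.09 and 0.18 on the log2 scale were left for Tmem252, Itgb6, Aldh1a7, Tcf24, Ppp1r16b, Gpd1, Cyp2d12, Hacl1 and Aunip. Tmem252, a membrane protein gene of little known role, had 519 to 1008 (median 721) in normal pools on control and 556 to 1104 (median 622) in Hyp pools on low phosphorus, which overlapped. Hyp pools on control reached 1463 to 3484 and normal pools on low phosphorus had 319.8 to 411. Its genotype effect was 1.39 ± 0.11 and its diet effect -1.48 ± 0.11, leaving -0.09 with a 95% interval of -0.40 to 0.23. Itgb6, the β6 integrin gene of αvβ6, ran the other way round. Signals of 306 to 554 in Hyp pools on control and 1382 to 1725 in normal pools on low phosphorus lay on either side of the groups compared (649.7 to 1078 and 814 to 1259). With -0.92 ± 0.09 from genotype and 1.10 ± 0.09 from diet, 0.18 remained (interval -0.10 to 0.46).

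**Figure D4:**
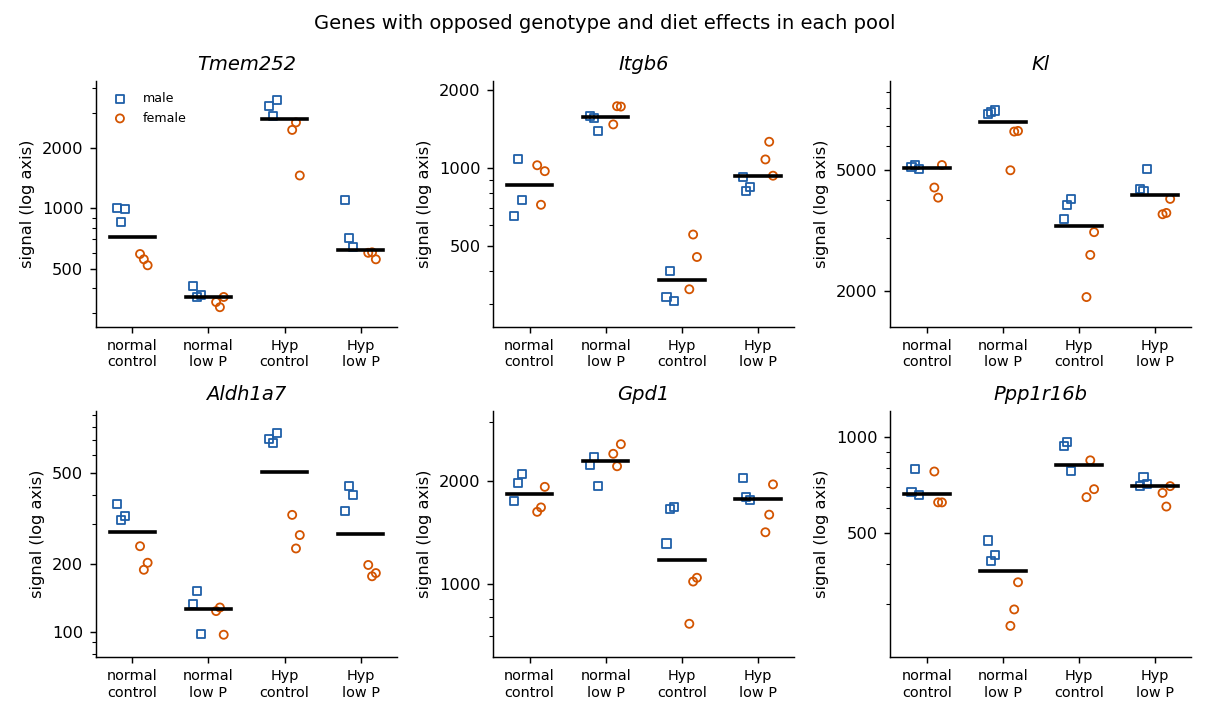
Signal of 6 genes with opposed genotype and diet effects in each of 24 pools (log axis, squares male, circles female, bar the median of 6 pools). In every panel the groups normal on control and Hyp on low phosphorus overlap, and the other 2 groups lie apart from each other.

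Aldh1a7, a cytosolic aldehyde dehydrogenase gene, was raised by genotype (0.95 ± 0.08) and lowered by diet (-0.92 ± 0.08), and left 0.03 (interval -0.21 to 0.26). Its signals of 188 to 367 (median 276) and 176 to 441 (median 269) overlapped within each sex. Tcf24, a transcription factor gene, had 0.75 and -0.75, and Ppp1r16b, a regulator of protein phosphatase 1, had 0.58 and -0.58, so that each summed to 0.00. Without the filter Ppp1r16b was read from another probe set, of the 430A chip, which gave 0.51 and -0.21, neither called, and 0.31 combined. Ppp1r16b was low in 1 of the 4 conditions, normal on low phosphorus (256 to 475), while the pools of the other 3 ranged from 607 to 967; its interaction of 0.72 was not called. Aunip had the same shape at a low signal, 8.50 to 53.8 in normal pools on low phosphorus against 55.9 to 126 elsewhere, with an interaction of 2.08 that was not called. In Gpd1, the cytosolic glycerol phosphate dehydrogenase gene, -0.50 from genotype met 0.43 from diet. Cyp2d12, a cytochrome P450 gene, had -0.57 and 0.54, and Hacl1, an enzyme of peroxisomal fatty acid α-oxidation, had -0.53 and 0.45. In females both fell without overlap, Cyp2d12 from 547 to 579 to 424 to 488 and Hacl1 from 2044 to 2178 to 1702 to 1906. In males the groups overlapped, at 624 to 722 against 669 to 886 and 578 to 700.5 against 607 to 730.0. Neither gene was called for the sex difference. Arg2, mitochondrial arginase, had 0.44 and -0.65, with a genotype part that lost its call without any 1 of 19 pools (adjusted p up to 0.0938).

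In most genes of phosphate handling the genotype and the diet estimates had opposite signs, which was also so in other lists. Kl, the FGF23 coreceptor Klotho, had 4056 to 5192 (median 5068) in normal pools on control and 3578 to 5024 (median 4138) in Hyp pools on low phosphorus. The 2 groups overlapped in males and did not in females. Genotype lowered it by 0.69 on the log2 scale and diet raised it by 0.47 ± 0.07, which left -0.23 ± 0.11 (adjusted p = 0.574, interval -0.45 to 0.00). Slc34a3, the sodium-phosphate cotransporter NaPi-IIc, had -0.61 ± 0.08 from genotype, a diet effect of 0.34 ± 0.08 that did not pass (adjusted p = 0.0607), and -0.27 ± 0.11 combined (adjusted p = 0.494). Slc34a1, the main cotransporter NaPi-IIa, had 13263 to 17139 and 11808 to 16817 in the 2 groups and a combined -0.13 ± 0.09 (adjusted p = 0.76), from -0.30 ± 0.06 and 0.17 ± 0.06. Over the 10 phosphate transporter and scaffold genes, none was called for the combined difference. By genotype 3 were lower, beside 1.95% of all features called in either direction, and none was by diet, beside 0.772%. The medians were -0.14 for genotype, 0.08 for diet and -0.10 combined, and the 2 estimates had unlike signs in 8 of 10. The share of unlike signs over all features is not given here. Such signs were also found in 9 of 11 circadian clock and 6 of 7 immediate early genes, against 3 of 9 straight proximal tubule genes. Unlike signs are thus not particular to phosphate genes. Slc20a2 gave -0.10 ± 0.16.

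Among FGF signalling genes Dusp6 was called for the combined difference. Dusp6, a phosphatase induced by ERK signalling, had 512 to 896 (median 791) in normal pools on control and 987 to 1335 (median 1110.0) in Hyp pools on low phosphorus, without overlap. It was 1.57-fold higher (0.65 ± 0.12, adjusted p = 0.00939), from 0.84 by genotype and -0.19 by diet. Of the 14 measured genes of Klotho, FGF receptors and ERK feedback, 4 were higher and Kl lower by genotype, beside 1.95% of all features. In 12 of the 14 the 2 estimates had unlike signs. The list's median was 0.27 for genotype, -0.14 for diet and 0.13 combined. Unlike signs were about as common in some other lists, as given above. Spry2, a feedback inhibitor of receptor tyrosine kinases, gave 0.49 by genotype and 0.28 ± 0.13 combined (adjusted p = 0.594). Fgfr1 gave 0.06 ± 0.14 (adjusted p = 0.968). The parathyroid hormone receptor gene Pth1r fell, by 0.30 on the log2 scale (adjusted p = 0.0141), with -0.42 from genotype and 0.12 from diet. Its call ended when arrays were scaled to a common median or when only the 12 pools were fitted.

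The called genes of the convoluted proximal tubule, where most glucose is reclaimed, fell, and those of the straight part rose. In the convoluted part, Slc5a2 (the glucose transporter SGLT2) had -0.64 from genotype and 0.30 from diet. The 2 groups did not overlap, at 4428 to 5206 and 3246 to 4269, and the difference of -0.35 ± 0.09 did not pass (adjusted p = 0.0663). Slc2a2, the basolateral glucose transporter GLUT2, cancelled to 0.04 ± 0.09 (interval -0.14 to 0.22), and Slc4a4, the basolateral sodium bicarbonate cotransporter, fell by 0.43 (adjusted p = 0.0015). The median over the 4 probe sets of Slc4a4, each tested on its own, was -0.45 and did not count as called. Of 10 convoluted tubule genes Slc4a4 and Slc22a6 fell and none rose, with a median of -0.03. By genotype 5 were lower and 1 higher, beside 1.95% of all features called in either direction. By diet 3 were higher and 1 lower, beside 0.772%. Over all features 0.488% were called higher and 0.354% lower. In the straight part 4 of 9 genes rose and none fell, with a median of 0.40. These were Slc7a12 (0.88 ± 0.17), the organic anion transporter genes Slc22a19 (0.53 ± 0.09) and Slc22a13 (0.41 ± 0.08), and Slc5a1 (SGLT1, 0.39 ± 0.09). The call of Slc5a1 was lost without any 1 of 16 pools (adjusted p up to 0.138). Slc7a12 went from 341 ± 38.8 to 1187 ± 383 among males and had 10098 ± 1132 against 10208 ± 1569 among females (SD, n = 3); the sex difference itself did not pass (adjusted p = 0.0713).

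Other genes with opposed and called effects included the carbonic anhydrase genes Car14 (-0.76 and 0.39) and Car4 (-0.38 and 0.69), whose products speed bicarbonate reclaim. The diet call of Car14 ended when arrays were scaled to a common median (0.37) or without the filter on low signals (0.39), and the genotype call of Car4 ended with common-median scaling (-0.36) or as the median over its probe sets (-0.39). Car14 was left at -0.37 ± 0.11 (adjusted p = 0.19) and Car4 at 0.31 ± 0.12 (adjusted p = 0.419). Beside Ttr, Ces1g, Cyp4b1, Slc13a1 and 1 feature without a name kept a called difference. Ces1g, a carboxylesterase gene, had 2.51 ± 0.21 from genotype and -0.97 ± 0.21 from diet. It rose 2.92-fold (1.55 ± 0.29, adjusted p = 0.00884), at 387 ± 106 against 1726 ± 216 in males and 57.8 ± 20.2 against 106 ± 21.9 in females (SD, n = 3). Its diet part lost the call without any 1 of 6 pools (adjusted p up to 0.0554). Cyp4b1 is described with the sexes. Slc13a1, the renal sodium-sulphate cotransporter gene, was left 1.54-fold higher (0.62 ± 0.09, adjusted p = 5.51e-04). The other named genes with opposed and called effects were Alpl, Bmp6, Slc22a12, Kmo, Aass, Acox2, Fam151a, Fcgr2b, Ifrd2, Ldha, Serpinf2, Thnsl2 and Xylb, none of which was called for the combined difference. In 5 of them a call depended on single pools. The diet call was lost without any 1 of 21 pools in Xylb (adjusted p up to 0.108), of 20 in Thnsl2 (up to 0.095) and of 14 in Alpl (up to 0.0668). The genotype call was lost without any 1 of 19 pools in Fam151a (adjusted p up to 0.1), of 16 in Ldha (up to 0.0821) and of 11 in Thnsl2 (up to 0.0696). The calls of these 5 genes also ended under 2 to 4 other settings each, common-median scaling among them. The genotype call of Acox2 ended under that scaling, and that of Fcgr2b as the median over its probe sets. The Fcgr2b pools of the 2 groups compared did not overlap, at 1571 to 1760.1 in normal on control and 1281 to 1543 in Hyp on low phosphorus (combined -0.25, not called).

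Of the 157 called features, 88 were called for genotype and not for diet. Dnase1, the secreted deoxyribonuclease I gene, fell from 11729 to 19473 (median 14063) to 2931 to 5821 (median 3841) without overlap, 3.55-fold (-1.83 ± 0.14, adjusted p = 1.79e-07). Its diet effect was 0.25 ± 0.10 (adjusted p = 0.387). Car3, a cytosolic carbonic anhydrase gene, fell from 1066 to 2162 to 562 to 1011, 2.23-fold (-1.15 ± 0.17, adjusted p = 8.72e-04). The zinc transporter gene Slc30a2 fell 2.03-fold (-1.02 ± 0.13), and Inmt, an indole N-methyltransferase gene, 1.79-fold (-0.84 ± 0.13). Upwards, Gulo, the last enzyme of vitamin C synthesis, rose from 42.7 to 81.5 (median 61.5) to 144 to 350.5 (median 218), 3.72-fold (1.90 ± 0.30, adjusted p = 0.00139). Ltc4s, leukotriene C4 synthase, rose 2.15-fold (1.10 ± 0.14, adjusted p = 1.75e-04). Fabp1, a fatty acid binding protein gene of liver and gut, gave 2.10 ± 0.45 from low signals (13.2 to 136 against 96.2 to 642), and its call was lost without any 1 of 6 pools (adjusted p up to 0.0788). The myomixer gene Mymx (0.93 ± 0.19), Olfml1 (1.06 ± 0.20) and the salt transporter gene of the distal convoluted tubule, Slc12a3 (0.42 ± 0.07), rose with genotype too. The Mymx call was lost without any 1 of 5 pools (adjusted p up to 0.0687).

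The plasma carrier and lipid-binding genes as a list held Ttr, Fabp1, Apoe, Apom and Apoc3 as called rises, 5 of 10 measured, and no fall. The list's median was 0.73, and the share called higher over all features was 0.488%. Apoc3 rose with the diet (0.56) and hardly with genotype (0.09), 0.65 ± 0.12 combined. Alb, a defining liver gene, gave -0.50 ± 0.22 and was not called. Of 5 other liver markers with a probe set, 4 lay under the array median on all 12 arrays (Fgb, Ahsg, Cyp3a11 and Tat).

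Pck1, Slc38a3, Glud1 and Car15, genes of ammonia production, glucose production or bicarbonate transport, fell with called diet effects. Pck1, which encodes phosphoenolpyruvate carboxykinase, fell from 9913 to 13861 (median 11016) to 3951 to 7828 (median 6489.6) without overlap, 1.87-fold (-0.90 ± 0.12, adjusted p = 3.72e-04). Of that, -0.74 came from diet and -0.16 (adjusted p = 0.545) from genotype. Slc38a3, the basolateral glutamine transporter SNAT3, fell from 499 to 793 to 345 to 424 (-0.78 ± 0.12, adjusted p = 0.00103), although the median with its second probe set was -0.32 and not called. Glud1, glutamate dehydrogenase, fell from 5832 to 8787 to 3966 to 5451 (-0.62 ± 0.09, adjusted p = 5.59e-04). Car15, a carbonic anhydrase gene, fell by 0.41 (adjusted p = 0.0165). These were 4 of 10 measured acid-base and ammonia genes, beside 0.354% of all features called lower. None had a called combined rise, and the list's median was -0.26. In each of these 4 the diet effect was called and the genotype effect was not. The list also had 2 genes called higher by the diet main effect and 3 called lower by the genotype main effect. Of all features, 0.772% were called for diet and 1.95% for genotype, in either direction.

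Cholesterol synthesis gave 3 falls and no rise among 14 measured genes, with a median of -0.13. Nsdhl (-0.50 ± 0.08, adjusted p = 0.00173) and Ebp (-0.32 ± 0.07, adjusted p = 0.0454) are enzymes of the late pathway, and Insig1 (-0.69 ± 0.15, adjusted p = 0.0333) encodes a regulator of sterol sensing. The calls of Ebp and Insig1 were lost without any 1 of 22 and of 10 pools (adjusted p up to 0.132 and 0.107). Of 9 cell cycle genes Ccna2 (0.66 ± 0.15) and Mcm6 (0.78 ± 0.17) rose, with the list's median at 0.36; without any 1 of 17 pools the first was not called, and of 7 pools the second (adjusted p up to 0.138 and 0.0709). Single calls were seen for the glycolytic gene Pfkp (0.44 ± 0.07), for Clu of the injury list (0.36 ± 0.08, lost without any 1 of 8 pools, adjusted p up to 0.102) and for Gsta2 of the glutathione list (-0.46 ± 0.11, lost without any 1 of 14, up to 0.128). Dzip1 (-1.44 ± 0.31, at 50.8 to 112 against 13.2 to 58.8) and Fam25c (-0.94 ± 0.18) also fell with a called diet effect. Dzip1 lost its call without any 1 of 7 pools (adjusted p up to 0.0913), and without the filter another probe set, of the 430A chip, stood for it and gave -0.37 (adjusted p = 0.79). With 50 added to each signal Dzip1 was at -0.61 and called. Fam25c lost its call without the second female Hyp pool on low phosphorus (adjusted p = 0.0552, log2 -0.87). The vitamin D and parathyroid hormone list gave 1 rise and 2 falls among 8 measured genes (Cyp24a1, Cyp27b1 and Pth1r; median 0.04), and glucose production and transport 1 of each among 11 (Slc5a1 and Pck1; median 0.03). Organic anion carriers gave 1 rise among 10 (Slc22a27), amino acid transporters 1 among 12 (Slc7a12) and distal convoluted tubule salt transport 1 among 8 (Slc12a3). No member was called for the combined difference among fatty acid oxidation genes (17 measured), chaperones (11), immediate early genes (7), collagens and matrix (9), the renin-angiotensin system (4), the circadian clock (11), principal cells (5) or the thick ascending limb (6). With 0.488% of all features called higher and 0.354% lower, lists of this size would mostly hold no call. Main effects were called in some of them, beside 1.95% of all features for genotype and 0.772% for diet. Fatty acid oxidation had 1 gene higher by genotype, and 2 higher and 1 lower by diet. Chaperones had 1 higher by each, and immediate early genes and the thick ascending limb 2 each higher by genotype.

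Males and females were compared because Hyp males carry only the mutant allele and Hyp females also a normal one. The female difference minus the male difference was called for 10 features (0.0536%), with 1055 at an unadjusted p under 0.05; 148 of the 157 called features were not among them. The count rested on single pools: it was 2 without the third male Hyp pool on low phosphorus or the first normal female pool on control. It was 3 without the second male Hyp pool on low phosphorus or the second or the third normal male pool on control. It was 4 without the second female Hyp pool on low phosphorus, 5 without the first or the third of these, and 6 without the second normal female pool on control. It was also 2 without the filter and 5 with common-median scaling. For Cyp27b1, S100g, Ttr and Dnase1 the male values were -3.11, -2.25, 1.76 and -1.90 and the female values -2.73, -2.38, 1.91 and -1.76. Cyp4b1, a cytochrome P450 gene that is far brighter in male kidneys, rose in females. Normal control males had 24388 to 34576 and Hyp males on low phosphorus 25460.5 to 28646. In females the signal went from 2034 to 3056 to 7237 to 7900.0, and the sex difference was 1.71 (adjusted p = 0.019).

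The other 4 named features called for the sex difference had higher signals in normal females than in normal males on control, and larger rises in males. The clone 9030619P08Rik had 402 to 603 against 1302 to 1498 in males and 2043 to 2549 against 1955 to 2313 in females (difference -1.63, adjusted p = 0.0136). Rdh16f2, a retinol dehydrogenase family gene, rose from 675 to 918 to 2056 to 2214 in males, and in females had 6181 to 7008 against 6456 to 6818 (difference -1.37, adjusted p = 0.00108). Dio1, the deiodinase that activates thyroxine, rose from 272 to 332 to 602 to 713 in males and had 1551 to 1764 against 1166 to 1560.2 in females (difference -1.41, adjusted p = 0.0373). Slc22a27, an organic anion transporter gene, had 1.60 to 3.40 against 29.6 to 59.5 in males, all under the array median, and 135 to 219 against 122 to 239 in females. With 50 added to each signal its combined difference fell from 2.18 to 0.49 and was not called (adjusted p = 0.19). Ugt2b37, a glucuronosyltransferase gene brighter in male kidneys, gave -2.46 ± 0.51 (adjusted p = 0.0191). It fell from 3366 to 3697 to 431 to 704 in males. In females its signals were under 100 in both groups, and its call was lost without any 1 of 3 pools (adjusted p up to 0.0582). Iffo1 (0.91 ± 0.21), at 1.81 in males and 0.01 in females, was not called for the sex difference and its combined call ended when any 1 of 18 pools was left out (adjusted p up to 0.128). Under the stricter filter, which kept another probe set, Iffo1 gave 0.39 and was not called (limma adjusted p = 0.926). The median over its probe sets, each tested on its own, was 0.39 too and did not count as called.

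**Figure D5:**
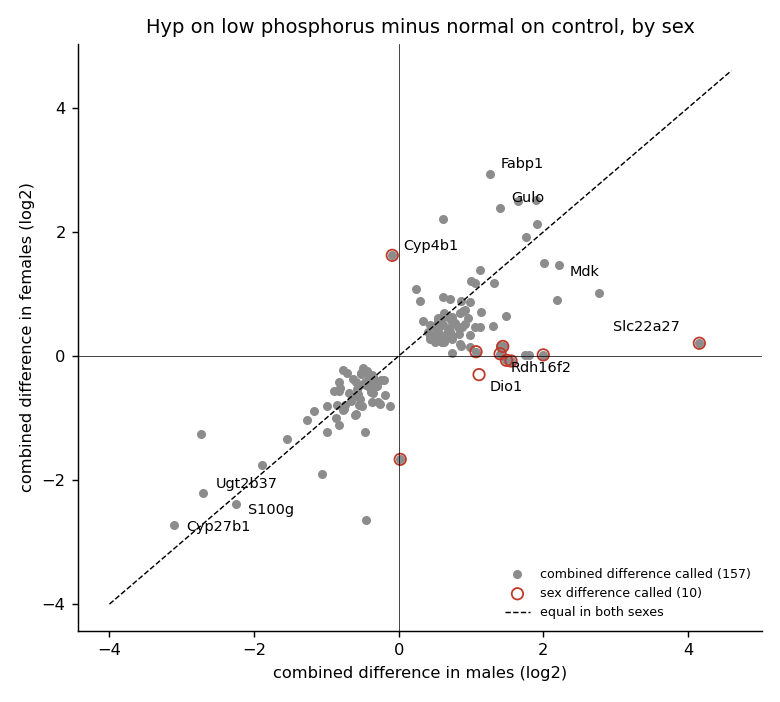
Combined difference (Hyp on low phosphorus minus normal on control, log2) in males on the x axis and in females on the y axis. Grey points are the 157 called features and red rings the 10 features called for the sex difference; most grey points lie near the dashed line of equality, while Cyp4b1 (-0.09 in males) and Slc22a27 (0.21 in females) lie close to an axis.

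Within 1 diet, genotype called 124 features on the control diet (0.665%) and 145 on low phosphorus (0.778%). Within 1 genotype, diet called 87 in normal mice (0.467%) and 28 in Hyp mice (0.150%). These comparisons share pools with each other, and the difference between the last 2 counts was not tested as such; the test of the difference itself is the interaction, which called 3 features.

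The sexes labelled could be checked: Xist signals were 1458 to 2011 in female and 62.1 to 180.3 in male pools. Phex itself could not, because both of its probe sets lay under the array median on all 24 arrays of the chip. Slc34a1, Kl and Slc12a3, defining genes of proximal and distal tubules, were bright in every pool. Summed signals of markers of podocytes, endothelium, leukocytes, adrenal cortex, fat, red blood cells, liver, skeletal muscle and exocrine pancreas overlapped between the 2 groups in all 9 lists, and none of their members was called for the combined difference. Leukocyte markers, for example, summed to 3086 to 4385 in normal pools on control and 3754 to 4292 in Hyp pools on low phosphorus, and Cd3e and Cd79a lay under the array median on all 12 arrays. Red blood cell markers summed to 468 to 775 and 627 to 865, with a median difference of 0.52 over 2 measured genes and a median genotype effect of 0.49. Slc4a1 of that list, the anion exchanger of red blood cells and of type A intercalated cells, was called higher by genotype (0.42 ± 0.09, adjusted p = 0.00989), and Alas2 was not (0.57 ± 0.16, adjusted p = 0.0879). The part of such cells in the results was not tested. Over all features 0.579% did not overlap between the 6 and 6 pools, and 0.488% were called higher and 0.354% lower. Overlap and a lack of calls are thus what most genes give, and they say little about cell content. The liver, skeletal muscle and exocrine pancreas lists had 1 tested gene each. Ratios of 3′ to 5′ control probe sets for Actb were 1.26 to 1.50 and 1.17 to 1.39 on the 430A chip. Of 40 called genes with several kept probe sets, 13 had another probe set called in the same direction and none in the opposite direction.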

How the data were processed

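Signal intensity per probe set was used as the authors deposited it, unlogged and in a separate table for each array. The submitters' processing notes name GCOS 1.2; the signal algorithm is not given in the sources used here. On every array the deposited values of the 100 probe sets shared by both chips had a trimmed mean of 1200.0. No detection calls were used, so low signals have an uncertain size, and the number of arrays limits the precision. Gene symbols came from the platform annotation, updated against the gene table of GRCm38.p6. Of its probe sets 35041 had 1 symbol (34837 matched that table), 936 had several and 9160 none; the last 2 kinds are unnamed here.

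Control probe sets were left out. A probe set was kept where it exceeded the median of its array on at least 3 of 24 arrays. A gene was represented by its brightest kept probe set, with the 430A chip preferred. Where a median over the probe sets of a gene is given, each probe set was tested by itself and the median was not. Signals below 1 were set to 1, and log2 values were fitted in limma 3.58.1 (R 4.3.3) with 8 group means per chip, and p-values were adjusted by Benjamini-Hochberg over both chips. Main effects, interaction and sex difference are contrasts of the same fit. The script was tested on simulated data.

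Named are the 12 largest rises and falls with the same sign in both sexes, up to 10 adding and 15 cancelling genes by the smaller of both effects, up to 10 genes for the interaction and for the sex difference, up to 3 genes from each of 35 lists, and 16 mineral and sex genes. Other names were picked with their values in view. The comparison, the lists and the rule were chosen with earlier results of these data known. No label says what a shared series number means, and it was not used as a pairing. Other scalings, floors, filters, fits and the leaving out of each pool are given at the end.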

Additional observations from a re-analysis of the deposited data

Results flagged for a closer look

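The genotype by diet interaction marked 3 genes whose diet effect differed between Hyp and normal mice: S100g (-2.60, adjusted p = 1.74e-07), Cyp27b1 (-6.62, adjusted p = 5.59e-07) and Ttr (1.22, adjusted p = 0.00392). All 3 values are log2 differences by limma.

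The combined difference of Hyp on low phosphorus against normal on control was unlike in females and males for 10 features by limma. Values are the female minus the male log2 difference. The 5 named features were Rdh16f2 (-1.37, adjusted p = 0.00108), 9030619P08Rik (-1.63, adjusted p = 0.0136), Cyp4b1 (1.71, adjusted p = 0.019), Slc22a27 (-3.95, adjusted p = 0.0272) and Dio1 (-1.41, adjusted p = 0.0373). The 5 features without a symbol had -1.56 (adjusted p = 0.0015), -1.28 (adjusted p = 0.0136), -1.98 and -1.69 (both adjusted p = 0.0177) and -1.0 (adjusted p = 0.0473). In 4 of these 5 the male difference was 1.07 to 2.00 and the female difference -0.07 to 0.15, and in the feature at -1.69 the female difference was -1.67 and the male 0.02. Groups of 3 pools were too small for a test of single outlying pools.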

How the results depend on the processing

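Among the alternatives tried, no named gene's called value changed sign. Without the filter on low signals, 43 features were lower in Hyp on low phosphorus than in normal on control, 8 were called for genotype and diet in the same direction and 2 differed between the sexes. Scaled to a common median, the arrays gave 9 features called in the same direction and 5 that differed between the sexes. With an intensity trend and a robust prior, 61 were called in opposite directions and 8 for the interaction. With 1 pool left out, 61 to 103 features were higher and 44 to 73 lower, 9 to 16 were called in the same direction (9 without the third male Hyp pool on control), 32 to 40 in opposite directions, 3 to 5 for the interaction (5 without the third normal female pool on control) and 2 to 13 for the sex difference. The sex count fell below 7 without any 1 of 9 of the 12 pools compared. Deviations of pools with the same series number correlated at -0.18 to 0.263 (median 0.0627, against -0.0354 between other numbers), 36.9% of these pairs exceeded 0.1, and 16 of 24 pools were closest on average to their own number. This is a hint of a shared deviation from the data and not from the design, and the pools were not paired; with the replicate block 117 features were higher, 86 lower, 17 adding and 53 cancelling. Of 2299 gene values under the other settings, 103 lost and 16 gained a call; of 5784 values without a pool, 303 lost and 8 gained one. The fit of the 12 pools alone gives no main effects or interaction. Called main effects of named genes that ended under at least 1 other setting included those for genotype in Arg2, Aunip, Calb1, Dpp7, Fmo1, Slc16a4 (-0.09 as the median over its probe sets) and Slc22a6, and for diet in Apom, Arg2, Aunip, Bhmt, Ces1g, Fmo1, Slc16a4 (-0.17) and Slc22a6 (-0.12). Named calls of the combined difference that ended under at least 1 other setting were those of Ccna2, Clu, Dzip1, Ebp, Fabp1, Fam25c, Gsta2, Iffo1, Insig1, Mcm6, Mymx, Olfml1, Pfkp, Pth1r, Slc13a1, Slc16a4, Slc22a27, Slc22a6, Slc38a3, Slc4a4, Slc5a1 and Ugt2b37. The cause was not tested. Signals under the array median limit the sizes of Cyp27b1, Slc22a27, Ugt2b37, Dzip1, Mymx, Gulo and Fabp1.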
